A study of Rattus norvegicus with 24 samples.

Results

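Transcripts of 9 genes that release, pump and bind calcium in skeletal muscle were followed in the tibialis anterior, a fast ankle dorsiflexor, of rats given daily resistance training. The genes were Cacna1s, Ryr1, Atp2a1, Atp2a2, Sln, Pln, Casq1, Casq2 and Pvalb, taken by name for their place in the calcium cycle of the fiber. Rows carrying these symbols were summed per gene. Of the 9 genes, 8 had a row among the 15273 gene symbols of the data, and all 8 passed the filter (1 TPM or more in 3 or more muscles) that 11196 genes passed. No row carries the symbol Atp2a1, so the fast fiber pump under that name was not analysed here, and a row without a gene name at its place in the genome is described in its stead.

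In a muscle fiber, the voltage sensor Cacna1s in the surface membrane opens the release channel Ryr1 of the sarcoplasmic reticulum, and calcium flows out to start contraction. The SERCA pumps, encoded by Atp2a1 in fast fibers and by Atp2a2 in slow fibers and heart, take calcium back, and the small membrane proteins sarcolipin (Sln) and phospholamban (Pln) restrain them. Inside the store calcium is held by calsequestrin, Casq1 mainly in fast fibers and Casq2 mainly in slow fibers and heart, and in the cytosol of fast fibers it is bound by parvalbumin (Pvalb).

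The rats were adult male Wistar animals without genetic modification, and every animal carried an implanted pulse generator. The left tibialis anterior was made to contract against its antagonists once a day ("SpillOver" training) for 2, 10, 20 or 30 days and was taken an hour after the last session, with 3 rats at each time. The right muscle of the same rat was not stimulated and served as contralateral control, so that the 12 control muscles came from the trained animals and not from untrained ones, and acute effects of a session cannot be told apart from effects of training. The tissue label held: the summed level of 5 skeletal muscle markers lay between 66070 and 79555 in the control muscles and between 50393 and 89155 in the trained ones. All levels below are TPM, transcript abundance per length, after rescaling of each sample, and log2 fold changes and their standard errors (SE) are on the log2(TPM + 1) scale, which understates changes of genes with low levels. In whole muscle, fewer fibers of a type and less RNA per fiber cannot be told apart.

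After 2 days of training 6 of the 8 genes differed from the 12 pooled control muscles at an adjusted p under 0.05 (limma, Benjamini-Hochberg over all 11196 genes). Casq2 was higher, and Cacna1s, Ryr1, Atp2a2, Pln and Pvalb were lower. In the same comparison 28.9% of all genes tested passed, 15.4% higher and 13.5% lower. After 10 days 3 of the 8 passed, Casq2 and Sln higher and Pvalb lower, against 28.9% of all genes (15.6% higher and 13.3% lower). After 20 days Cacna1s, Casq1 and Pvalb were lower and none of the 8 was higher, against 21.4% of all genes (11.7% higher and 9.64% lower). After 30 days 2 passed, Casq1 and Pvalb, both lower, against 20.6% (11.1% higher and 9.46% lower). The median log2 fold change of the 8 genes was -0.35, -0.16, -0.20 and -0.29 at 2, 10, 20 and 30 days, and that of all genes tested was -0.01, -0.03, -0.03 and -0.01. With each trained muscle set against the muscle of its own animal (animal as a block), 3 of the 8 passed at 2 days, Casq1, Casq2 and Pvalb, where 21.6% of all genes passed. The numbers called under that block were 3, 4 and 2 at 10, 20 and 30 days, against 20.1%, 17.4% and 12.3% of all genes. All 3 trained muscles lay outside the range of the 12 controls for 3, 1, 2 and 2 of the 8 genes at the 4 times, and for 14.7%, 18.1%, 13.0% and 13.6% of all genes.

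**Figure D1:**
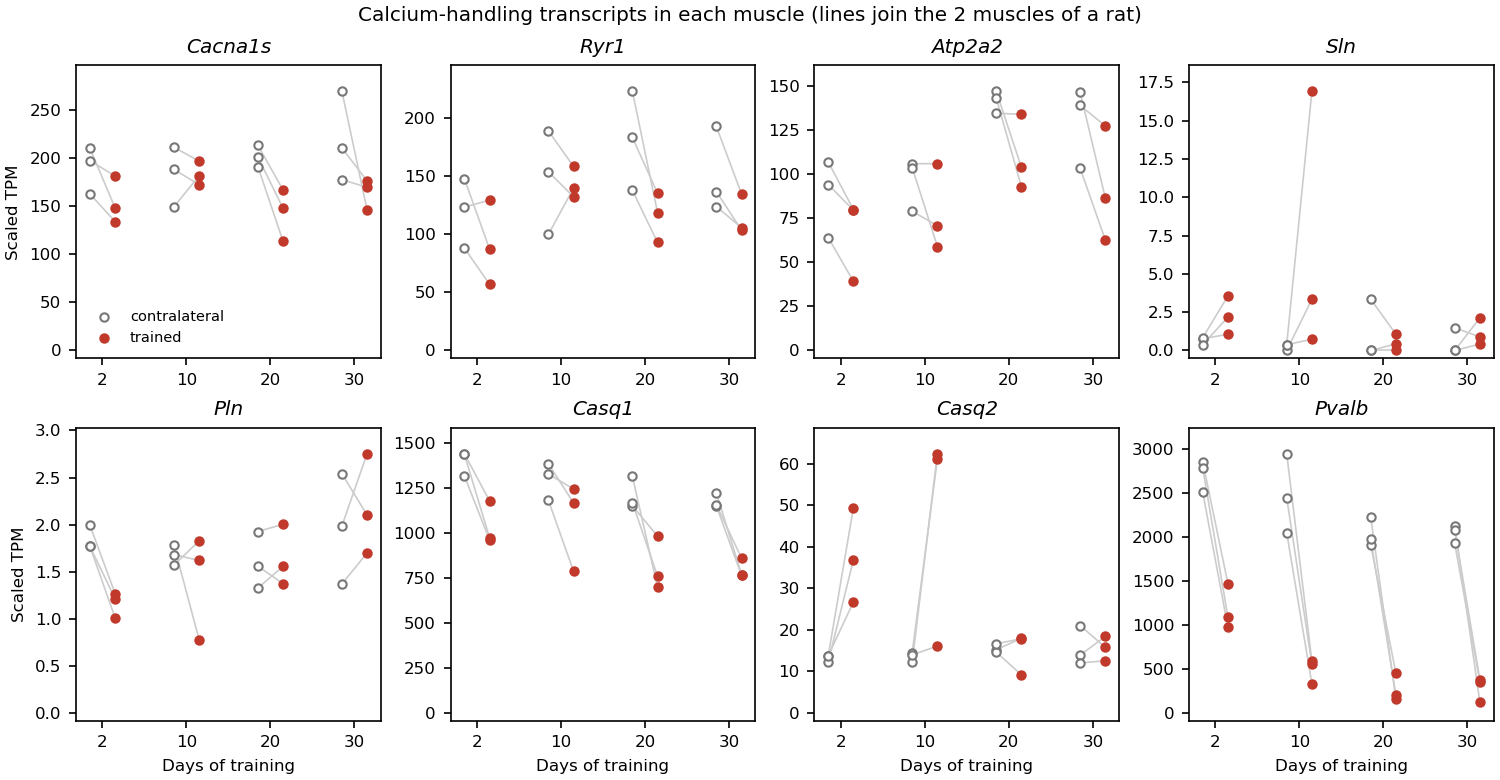
Scaled TPM (vertical axes) of the 8 genes in each of the 24 muscles by days of training, with contralateral muscles as open circles, trained muscles as filled circles and lines joining the muscles of a rat. Pvalb fell below all 12 control muscles at every time, Casq1 at 20 and 30 days, and Casq2 rose above all of them at 2 days.

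**Figure D2:**
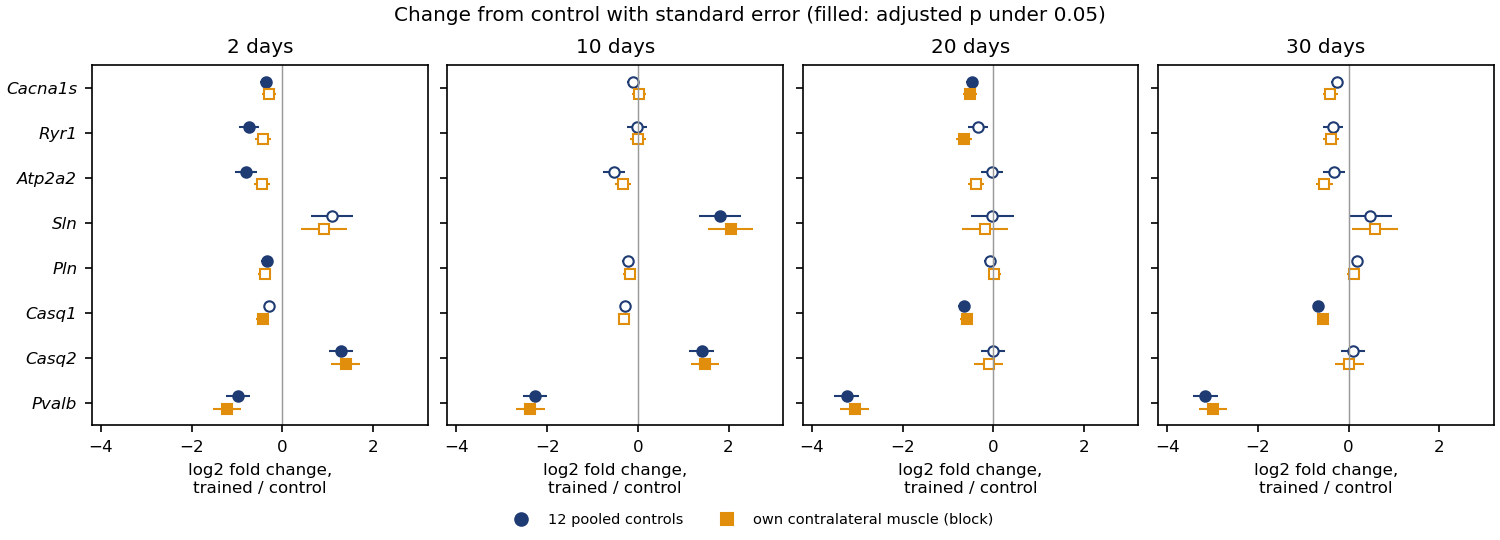
Log2 fold change of trained over control with its standard error for each gene and time, against 12 pooled controls (circles) and with animal as a block (squares); filled symbols have an adjusted p under 0.05. Pvalb and Casq2 are the genes with filled symbols of both kinds at 2 days.

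The voltage sensor passed the test at 2 and 20 days and the release channel at 2 days, both lower. Cacna1s, which encodes the pore-forming subunit of the voltage sensor, had a level of 199 ± 30.2 (SD, n = 12) in the control muscles, with a lowest value of 150, a median of 199 and a highest value of 270. The trained muscles had 181, 134 and 148 after 2 days, 182, 172 and 197 after 10 days, 148, 167 and 113 after 20 days, and 146, 170 and 177 after 30 days. No trained muscle exceeded the control median, while all 3 muscles at 10 days lay within the control range. Cacna1s had a log2 fold change of -0.48 (SE 0.13, adjusted p = 0.0113 by limma) at 20 days and -0.36 (adjusted p = 0.0467) at 2 days. The 2-day value did not pass with animal as a block (-0.30, adjusted p = 0.19), and 12 of 15 alternative settings ended that call. The 20-day value passed under the block (-0.51, adjusted p = 0.0369), but rested on replicate 3, without which it was -0.32 with an adjusted p of 0.141. The level was lower in the trained muscle in 11 of 12 rats.

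Ryr1, the release channel itself, ranged from 88.0 to 223 in the control muscles, with a median of 143. After 2 days the trained muscles had 129, 56.9 and 87.1, and 2 of them lay below every control. After 10 days the levels were 140, 132 and 158, after 20 days 119, 135 and 92.9, and after 30 days 106, 103 and 135, all within the control range. At 2 days the difference was -0.74 on the log2 scale (SE 0.22, adjusted p = 0.015 by limma). It was -0.44 (adjusted p = 0.0945) with animal as a block, and -0.44 (adjusted p = 0.263) without replicate 2, the muscle with the lowest level. At 20 days the order was the other way: the pooled comparison gave -0.34 (adjusted p = 0.311) and the block -0.63 (adjusted p = 0.0249), with the trained muscle lower in 3 of 3 rats. Nearly all of the signal of this gene came from the transcript Ryr1-202 (149 of the control mean of 150).

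The slow fiber pump Atp2a2 was lowest early. Control muscles had a mean of 114 ± 27.8 (SD, n = 12), with a range of 64.1 to 147 and a median of 106. Trained muscles had 79.9, 39.2 and 79.6 after 2 days, 70.7, 106 and 58.9 after 10 days, 104, 92.8 and 134 after 20 days, and 86.3, 127 and 62.5 after 30 days. Each trained group overlapped the controls, with 1 muscle below all of them at 2, 10 and 30 days. Atp2a2 differed by -0.80 on the log2 scale at 2 days (SE 0.25, adjusted p = 0.0163 by limma), and the values at 10, 20 and 30 days were -0.53, -0.02 and -0.32 with adjusted p of 0.11, 0.964 and 0.386. With animal as a block the 2-day value was -0.45 (adjusted p = 0.0893). Without replicate 2, which had the lowest level, the pooled value was -0.47 (adjusted p = 0.283).

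The contralateral level of Atp2a2 was not the same at all times, with group means of 88.4, 96.2, 142 and 130 at 2, 10, 20 and 30 days. The limma F test among the 4 contralateral groups gave an adjusted p of 0.569 for this gene. Against its own day's controls the trained mean was 74.9%, 81.7%, 77.8% and 71.0%, and the trained muscle was lower in 11 of 12 rats. Set against the pooled controls it was 58.1%, 68.9%, 96.7% and 80.8%. For all 8 genes, 0 passed the F test among contralateral groups and 0 had an unadjusted p under 0.05, while 17 of 11196 genes passed (0.152%). The genes most like Atp2a2 over the 24 muscles, among 3834 genes compared, were Myh7, the slow myosin heavy chain (Pearson r of log2 levels 0.95), and Tnnt1, slow troponin T (r = 0.86), and these points share the libraries and the animals. The summed level of the 6 slow fiber markers was 1110 to 2304 in the control muscles and 721 to 1079 at 2 days, where Myh7, Myl3 and Tnnt1 passed the test and were lower, and 0 of the 6 passed with animal as a block or with time-matched controls. Of all genes, 13.5% passed and were lower at 2 days, and 21.6% and 19.6% passed in those settings. The summed level of the slow fiber markers was 577 to 1840 at 10 days, 1121 to 1355 at 20 days and 918 to 1621 at 30 days. Its part in the Atp2a2 values was not tested.

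The row at the place of the fast fiber pump is AABR07005775.1 (ENSRNOG00000047124), a protein-coding gene model without a gene name on chromosome 1, positions 197856903 to 197858017, minus strand, in Rnor_6.0. Its neighbours there are Rabep2 and Sh2b1, and in the newer assembly GRCr8 exactly 1 gene symbol, Atp2a1, stands between that pair. The data do not tie the row to Atp2a1, so it is given by its own name. It had a level of 5499 ± 605 (SD, n = 12) in the control muscles, with a range of 4585 to 6859 and a median of 5316. Per length this was far above the 114 of Atp2a2.

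After training this row was lower at every time and in 12 of 12 rats. The trained muscles had 4596, 4180 and 4107 after 2 days, 3556, 4181 and 3830 after 10 days, 4968, 4341 and 2669 after 20 days, and 3643, 4169 and 3697 after 30 days. All 3 muscles lay below every control at 10 and 30 days, and 2 of 3 at 2 and 20 days. On the log2 scale the differences from control were -0.35, -0.51, -0.50 and -0.51 (SE 0.13, adjusted p of 0.0449, 0.00444, 0.00655 and 0.00608 by limma). With animal as a block the 20-day value was -0.36 (adjusted p = 0.11). Without replicate 3 at 20 days it was -0.24 (adjusted p = 0.168), and at 2 days leaving out any 1 of the 3 muscles ended the call.

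The ratio of Atp2a1 to Atp2a2 could not be formed, and the ratio of AABR07005775.1 to Atp2a2, added after the rows had been seen, is given instead. It was 52.5 ± 21.2 (SD, n = 12) in the control muscles and ranged from 34.1 to 107. In the trained muscles it averaged 71.9 ± 30.2, 51.6 ± 12.8, 38.2 ± 15.8 and 44.7 ± 13.4 (SD, n = 3 each) at 2, 10, 20 and 30 days, and each group overlapped the controls. The differences in mean log2 ratio were 0.46, 0.03, -0.48 and -0.19, with adjusted p of 0.264, 0.862, 0.264 and 0.693 by exact two-sided permutation tests of 12 against 3 muscles, adjusted over 8 ratio tests. Within rats the ratio was higher in the trained muscle in 6 of 12 and lower in 6 of 12 (mean log2 difference -0.04, p = 0.704, exact sign-flip permutation test). The contralateral ratio itself was 74.7, 58.1, 34.9 and 42.4 at the 4 times, and differences among these groups were not tested.

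The pump inhibitors were the scarcest transcripts of the set and their levels rest on few reads. The lowest values are whole multiples of a smallest step, which was taken as a single counted fragment. Sln had 0 to 8 steps in the control muscles, with 5 of 12 at 0 and 19 steps in total, and a value of 3 steps corresponded to 1.03 to 1.80 TPM there. The control levels of Sln had a median of 0.378 and a highest value of 3.35.

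Trained muscles had Sln levels of 1.06, 3.55 and 2.18 after 2 days (3, 10 and 6 steps), 3.34, 16.9 and 0.727 after 10 days (9, 43 and 2 steps), 0.433, 0 and 1.07 after 20 days, and 0.418, 2.12 and 0.886 after 30 days. A single muscle, replicate 2 at 10 days, was far above all others, and 1 of 3 muscles exceeded every control at 2 days and at 10 days. The log2 fold change at 10 days was 1.81 (SE 0.47, adjusted p = 0.00487 by limma). Without replicate 2 it was 0.91 with an adjusted p of 0.153, so the call rests on that muscle. At 2 days the value was 1.09 (adjusted p = 0.0849), with Sln higher in the trained muscle in 3 of 3 rats, and at 20 and 30 days it was -0.02 and 0.48 (adjusted p of 0.982 and 0.516).

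Pln had levels of 1.33 to 2.54 in the control muscles with a median of 1.77, from 24 to 38 steps. After 2 days it had 1.21, 1.27 and 1.01 (26, 27 and 21 steps by the same count), and all 3 muscles lay below every control. The levels were 1.62, 0.781 and 1.83 after 10 days, 2.00, 1.37 and 1.56 after 20 days, and 2.10, 2.75 and 1.70 after 30 days, and these groups overlapped the controls. The log2 fold change at 2 days was -0.35 (SE 0.13, adjusted p = 0.0418 by limma) and -0.39 (adjusted p = 0.0726) with animal as a block. Leaving out any 1 of the 3 trained muscles ended the call. The muscle with the highest Sln, replicate 2 at 10 days, had the lowest Pln of all 24, and across the 24 muscles the log2 levels of the pair had a Pearson r of -0.58, a description of points that share libraries and, at these levels, counting error.

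**Figure D3:**
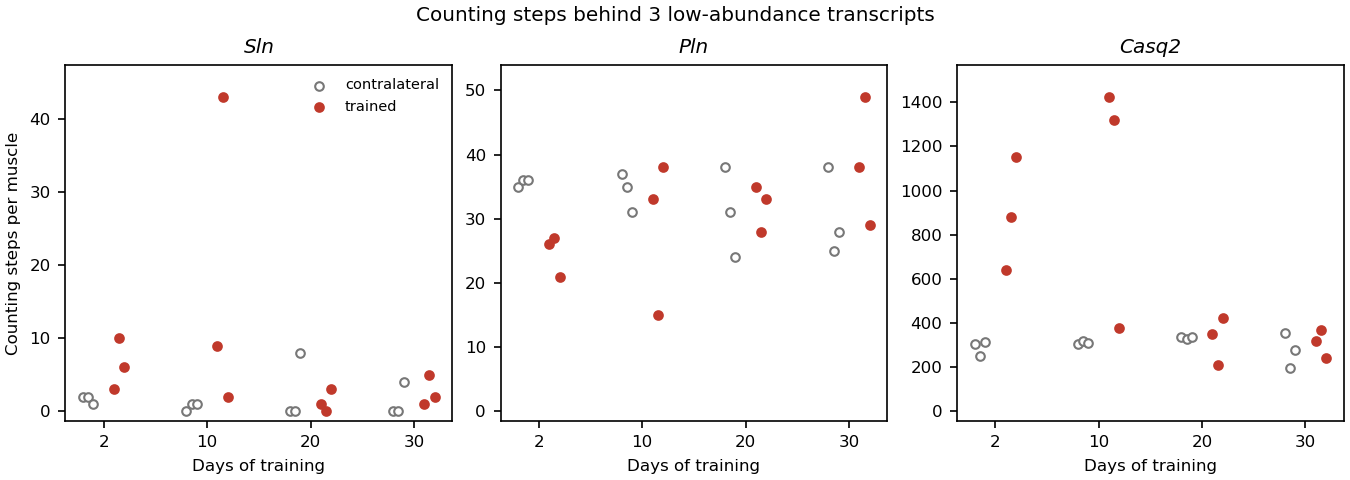
Counting steps (vertical axes) behind Sln, Pln and Casq2 in each muscle by days of training, contralateral open and trained filled. Sln reached 43 steps in 1 trained muscle and 10 at most in any other, and Casq2 rested on 197 to 1425 steps.

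The calsequestrins passed the test at different times, Casq2 higher at 2 and 10 days and Casq1 lower at 20 and 30 days. Casq1, the main calcium store protein of fast fibers, had a control level of 1271 ± 112 (SD, n = 12), with a range of 1151 to 1440 and a median of 1269. Trained muscles had 1178, 973 and 961 after 2 days, 1166, 1244 and 788 after 10 days, 982, 760 and 700 after 20 days, and 768, 765 and 860 after 30 days. All 6 muscles at 20 and 30 days lay below every control, as did 2 at 2 days and 1 at 10 days. The trained mean was 64.0% of the pooled control mean at 20 days and 62.7% at 30 days.

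The log2 fold change of Casq1 was -0.65 at 20 days and -0.67 at 30 days (SE 0.12 and an adjusted p of 0.0003 by limma at both). At 2 and 10 days it was -0.29 and -0.28 (adjusted p of 0.0689 and 0.0873). With animal as a block the 2-day value was -0.44 and passed (adjusted p = 0.0396), and the trained muscle had less Casq1 than the contralateral muscle in 12 of 12 rats. The 20-day call held under all 15 alternative settings run, with values between -0.80 and -0.55. The 30-day call held under 14 of 15, with values between -0.89 and -0.53, and was lost (adjusted p = 0.0632) with time-matched controls when contralateral replicate 1 of 30 days was left out as well.

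Casq2, the slow and cardiac form, had a control level of 14.5 ± 2.43 (SD, n = 12), between 12.04 and 21.04 with a median of 13.97. After 2 days it was 26.7, 36.9 and 49.4, and after 10 days 62.3, 61.2 and 16.1. It was 17.96, 9.18 and 17.9 after 20 days and 15.8, 18.4 and 12.6 after 30 days. All 3 muscles at 2 days and 2 of 3 at 10 days exceeded every control, while replicate 3 at 10 days and the groups at 20 and 30 days did not.

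The log2 fold change of Casq2 was 1.29 at 2 days (SE 0.27, adjusted p = 0.000707 by limma) and 1.40 at 10 days (adjusted p = 0.000271). At 20 and 30 days it was 0.00 and 0.09 (adjusted p of 0.998 and 0.844). The early calls held under all 14 alternative settings run for each, with values from 1.08 to 1.51 at 2 days and from 1.09 to 2.03 at 10 days. Of the 6 slow fiber markers, 3 were lower and 0 higher at 2 days, beside 13.5% and 15.4% of all genes. With animal as a block 0 of the 6 passed in either direction, beside 21.6% of all genes. Heart markers were near 0, with a summed level of Myh6 and Tnni3 of 0.357 to 2.99 at 2 days and 0.0743 to 6.46 in the controls. The part of either marker set in the Casq2 values was not tested. The genes most like Casq2 over the 24 muscles were Xirp2, which encodes an actin-binding protein of striated muscle (r = 0.92), and Itgb1, integrin beta 1 (r = 0.89).

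The ratio of Casq1 to Casq2 fell at 2, 10 and 30 days. It was 89.6 ± 16.5 (SD, n = 12) in the control muscles, between 58.2 and 116. In the trained muscles it was 44.1, 26.4 and 19.4 after 2 days, 18.7, 20.3 and 48.9 after 10 days, 54.7, 82.8 and 39.2 after 20 days, and 48.7, 41.5 and 68.4 after 30 days. All 6 muscles at 2 and 10 days lay below every control, and 2 of 3 did so at 20 and at 30 days. The differences in mean log2 ratio were -1.64, -1.73, -0.65 and -0.77 at the 4 times. The adjusted p was 0.0176, 0.0176, 0.0615 and 0.0234 by exact two-sided permutation tests of 12 against 3 muscles, and the unadjusted p of 0.0044 at 2 and 10 days is the smallest that this design allows.

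Within rats the ratio was lower in the trained muscle in 11 of 12 (mean log2 difference -1.20, p = 0.000977, exact sign-flip permutation test). The exception was replicate 2 at 20 days, where the trained muscle had the lowest Casq2 of all. The parts of the ratio differed between times: at 2 and 10 days the Casq2 level carried most of the difference, and at 30 days the Casq1 level did. Casq2 made up 1.14% ± 0.227 (SD, n = 12) of both calsequestrin transcripts in the control muscles and 3.59%, 3.92%, 1.83% and 1.94% in the trained ones, so Casq1 remained the major form at every time.

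**Figure D4:**
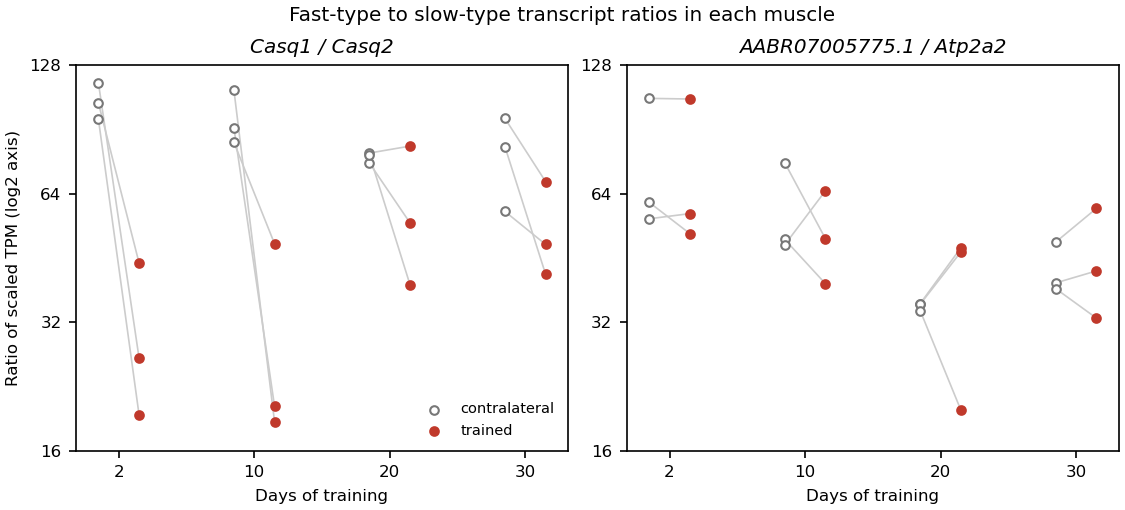
Ratios of scaled TPM (log2 vertical axes) of Casq1 to Casq2 and of AABR07005775.1 to Atp2a2 in each muscle by days of training, with lines joining the muscles of a rat. The calsequestrin ratio lies below all controls in the 6 trained muscles of 2 and 10 days. The ratio of AABR07005775.1 to Atp2a2, which is not the Atp2a1 to Atp2a2 ratio, overlaps the controls at every time.

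Parvalbumin was lower at all 4 times. Pvalb had a control level of 2322 ± 377 (SD, n = 12), between 1914 and 2947 with a median of 2178. The trained muscles had 1471, 1089 and 977 after 2 days, 589, 553 and 330 after 10 days, 453, 205 and 157 after 20 days, and 356, 124 and 379 after 30 days. All 12 trained muscles lay below every control, and the trained mean was 50.8%, 21.1%, 11.7% and 12.3% of the pooled control mean. Relative to the pooled controls Pvalb differed by -0.98, -2.27, -3.23 and -3.16 on the log2 scale (SE 0.27), with adjusted p of 0.00858, 9.2e-07, 7.11e-09 and 1.57e-08 by limma. The 2-day call was lost without replicate 2 (-0.94, adjusted p = 0.0629) and without replicate 3 (-0.86, adjusted p = 0.0685), and the later calls held under all 15 alternative settings run for each.

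Over the 24 muscles the gene most like Pvalb was Actn3, the alpha-actinin of fast fibers (r = 0.97), followed by Glul, glutamine synthetase (r = 0.96). Among the 8 genes its nearest was Casq1 (r = 0.90). The summed level of 6 fast fiber markers, Actn3 among them, changed far less, from 45191 to 60266 in the control muscles to 35157 to 54655 in the trained ones. Actn3 by itself, with a control mean of 3569 within that sum, had log2 fold changes of -0.74, -1.44, -1.84 and -2.18 at the 4 times. At each time 2 to 3 of the 6 passed the test (1 to 2 with animal as a block), beside 28.9%, 28.9%, 21.4% and 20.6% of all genes. They were lower, except that at 10 days 1 was higher (Mylpf) and 2 were lower. Markers of fibroblasts moved the other way: their summed level was 70.1 to 242 in the control muscles and 285 to 939 in the trained ones. At the 4 times 3, 4, 4 and 4 of 4 were higher, beside 15.4%, 15.6%, 11.7% and 11.1% of all genes. With animal as a block 4, 4, 3 and 3 were higher, beside 11.8%, 12.1%, 9.94% and 7.21% of all genes. With time-matched controls 3, 3, 3 and 2 were higher, beside 10.8%, 10.7%, 8.34% and 5.80%. Markers of macrophages had summed levels of 2.06 to 6.07 in the control muscles and 6.58 to 18.4 in the trained ones. Their part in the lower muscle transcripts was not tested.

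Promoters are shown from RefSeq (GRCr8) for 3 genes, Casq1 and Pvalb, whose levels were lowest at 20 and 30 days, and Casq2, which was higher at 2 and 10 days, each from 250 bases before to 50 bases after the start of the gene. The window of Casq1 lies at chr13:87212661-87212960 (minus strand), that of Casq2 at chr2:192214306-192214605 (plus strand) and that of Pvalb at chr7:111666240-111666539 (minus strand). Capitals mark the letters of an E-box (CANNTG, the site of MyoD-type factors) or of a MEF2 site, read on both strands.
Casq1: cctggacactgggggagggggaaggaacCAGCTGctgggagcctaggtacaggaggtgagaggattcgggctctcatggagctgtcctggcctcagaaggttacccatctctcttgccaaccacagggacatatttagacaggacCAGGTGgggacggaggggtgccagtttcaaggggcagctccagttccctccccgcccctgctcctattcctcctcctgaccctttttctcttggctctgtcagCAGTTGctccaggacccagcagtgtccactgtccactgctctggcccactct
Casq2: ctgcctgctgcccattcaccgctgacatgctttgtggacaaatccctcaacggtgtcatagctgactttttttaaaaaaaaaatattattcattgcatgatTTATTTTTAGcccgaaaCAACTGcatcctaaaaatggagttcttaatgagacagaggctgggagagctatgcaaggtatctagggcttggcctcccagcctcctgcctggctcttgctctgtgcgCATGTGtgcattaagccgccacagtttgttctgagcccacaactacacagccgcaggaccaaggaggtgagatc
Pvalb: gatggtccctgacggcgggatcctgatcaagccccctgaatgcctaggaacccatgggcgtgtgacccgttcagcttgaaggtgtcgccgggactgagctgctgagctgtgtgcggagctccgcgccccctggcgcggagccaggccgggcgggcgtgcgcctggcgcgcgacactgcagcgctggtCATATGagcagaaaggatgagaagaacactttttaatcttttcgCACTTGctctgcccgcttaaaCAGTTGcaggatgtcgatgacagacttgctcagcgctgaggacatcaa
An E-box stands in 72.1% of the 33469 promoters of this length, and in those of all 8 members that have an entry, with 3 in Casq1, 2 in Casq2 and 3 in Pvalb. These 8 include Atp2a1 and lack Sln, which has no entry, so they are not the 8 genes analysed above. A MEF2 site is found in 3.29% of all promoters and, among the 8, in that of Casq2, 149 bases before the start. The letters TATAAA (14.2% of all promoters) and the NFAT core GGAAA (62.7%) were searched as well and are not in these 3 windows. A match in letters is not evidence of binding.

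The trained groups were also compared with each other, which asks whether the level in trained muscle changed with the length of training. Between 10 and 2 days, 20 and 10 days, and 30 and 20 days, 0 of the 8 genes passed, with 2, 5 and 0 at an unadjusted p under 0.05, where 1.93%, 0.17% and 0.0357% of all genes passed (limma). Between 30 and 2 days 3 passed, against 15.0% of all genes. Pvalb was lower by a log2 difference of -2.18 (SE 0.34, adjusted p = 0.000212) and Casq2 by -1.19 (SE 0.34, adjusted p = 0.0176), and Pln was higher by 0.55 (SE 0.16, adjusted p = 0.0233). With animal as a block, which compares the differences from each rat's own control, 0 of the 3 passed: the values were -1.77, -1.38 and 0.50 with adjusted p of 0.0524, 0.11 and 0.203, and 2.8% of all genes passed. On the values as deposited Pln did not pass. The Casq2 and Pln calls were also lost when certain single trained muscles were left out.

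Of 54 other genes of calcium handling, 51 had a row and 47 passed the filter. At 2 days 19 of the 47 passed the test, 11 higher and 8 lower, and at 10 days 14, with 3 higher and 11 lower. At 20 days 1 was higher and 13 were lower, and at 30 days 2 and 17. The share of all genes that passed was 28.9%, 28.9%, 21.4% and 20.6%. The balance at 2 days turned with animal as a block, to 6 higher and 10 lower, and was 6 and 6 with time-matched controls. In these settings 21.6% and 19.6% of all genes passed. The median log2 fold change of the 47 was -0.04, -0.03, -0.21 and -0.22. On the values as deposited the counts higher and lower were 12 and 4 at 2 days, 8 and 5 at 10 days, 1 and 11 at 20 days, and 0 and 26 at 30 days, where the median of all genes was itself -0.18, and 25.4%, 24.7%, 16.9% and 28.7% of all genes passed at the 4 times. In the rescaled values 17 genes passed at 2 or more times with one direction, 15 of them lower and 2 higher at those times.

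The triad, where the surface membrane meets the calcium store, was represented by 18 tested genes. At 2 days 6 of them were higher and 4 lower, beside 15.4% and 13.5% of all genes. At 30 days 0 were higher and 8 lower, beside 11.1% and 9.46% of all genes. With animal as a block the counts were 2 and 4 at 2 days and 0 and 6 at 30 days, with time-matched controls 3 and 4 and 0 and 5, and on the values as deposited 6 and 2 and 0 and 14. The junctophilins, which tether the membranes of the triad, were among the lower ones at late times. Jph2 had a control level of 120 ± 27.3 (SD, n = 12) and trained means of 70.6, 68.2, 61.1 and 43.9, with log2 fold changes of -0.72, -0.78, -1.05 and -1.40 (adjusted p of 0.0182, 0.0108, 0.0013 and 8.23e-05 by limma). On the values as deposited its calls at 2 and 10 days were lost, and with time-matched controls the call at 10 days was lost. Jph1 fell from 85.5 ± 7.63 to 54.0, 43.7 and 42.8 at 10, 20 and 30 days (log2 fold change -0.65, -0.95 and -0.98), after -0.17 (adjusted p = 0.139) at 2 days.

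Among calcium sensors, the calmodulin gene Calm2 was lower at all 4 times (-0.51, -0.68, -0.74 and -0.76, control level 202 ± 18.5), and S100a1, an S100 protein that binds Ryr1 and the pump, was lower at 2 and 10 days (-0.61 and -0.66, control level 3.86, adjusted p of 0.0491 and 0.0327 by limma). With animal as a block the S100a1 call at 2 days was lost, and on the values as deposited it passed at 0 of the 4 times. The calmodulin kinase II family was split. Camk2g was lower at all 4 times (-0.67, -0.62, -0.47 and -0.49), and Camk2a, the alpha form, at 10, 20 and 30 days (-0.54, -0.84 and -0.83). Camk2d was higher at 2 and 10 days (0.70 and 0.54), and Camk2b at 10 days (0.53). On the values as deposited the Camk2a call at 10 days was lost. The sodium-calcium exchanger Slc8a3 was lower at 10, 20 and 30 days (-0.57, -0.85 and -0.78). In contrast Atp2b4, a plasma membrane calcium pump, was higher at those times (0.67, 0.50 and 0.50) from a control level of 1.16 ± 0.257. Its call at 30 days was lost on the values as deposited, and its call at 20 days with time-matched controls. Calmodulin is encoded by several genes that make the same protein, and the values of Calm2 alone do not give the amount of its message.

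**Figure D5:**
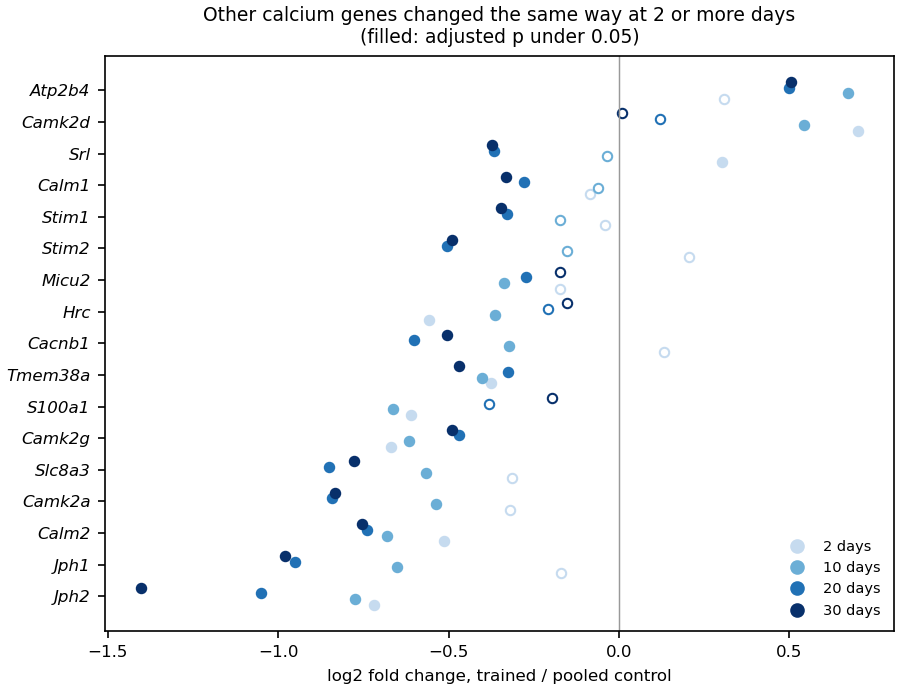
Log2 fold change of trained over pooled control (horizontal axis) at each time for the 17 other calcium genes that passed in the same direction at 2 or more times, with filled points at an adjusted p under 0.05. Jph2, Calm2, Camk2g and Tmem38a, a cation channel of the store, were lower at all 4 times, and Tmem38a kept 2 of its 4 calls with animal as a block. Jph2 kept 2 of its 4 calls on the values as deposited and 3 with time-matched controls.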

How the data were processed

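RNA was sequenced by the authors from poly-A selected, strand-marked libraries of 24 tibialis anterior muscles, the trained left and contralateral right of 12 Wistar rats, with groups taken from the sample labels. Reads were trimmed, aligned with STAR to Rnor_6.0 (rn6) and quantified to Ensembl transcripts in Partek Flow. The authors deposited TPM values for 20027 transcripts, scaled to the same total (634431) in every sample, although the methods name DESeq2's median of ratios. A second deposited table gives gene-level signal for 4635 genes, 5 of the 8 members among them, used here as an alternative. A further table with the authors' own p-values, FDR, ratios, fold changes and group means was not used. The study records read totals per sample, which were not used here. The tables analysed hold no counts, so the depth behind each value and the precision it gives were not computed. Fragments were recovered for 3 transcripts only, as steps (tolerance 0.01 of a step), and cover counting error.

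Transcripts were summed per symbol, and each sample was divided by a median-of-ratios factor from 16230 transcripts (0.778 to 1.14). Genes reaching 1 in 3 or more samples were kept. The fit used limma 3.58.1 (R 4.3.3) on log2(value + 1), with 5 groups in 1 fit, 12 pooled controls as in the study and 3 trained muscles per time, Benjamini-Hochberg over all genes within a comparison, threshold 0.05. Ratios were tested by exact permutation in scipy 1.17.1. The fit was tested on simulated data. The named genes were all members, and of the other calcium genes up to 8 past the threshold in the same direction at 2 or more times with the largest mean change, and for each member tested the 2 most alike genes with a mean of at least 10, not all of them given. Camk2b, Camk2d and Tmem38a were named outside this rule. Members and lists were chosen with earlier results of these data known. Motif searches and the row AABR07005775.1 were added after the files had been seen.

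Samples of a time came from separate rats, and 0 of 276 pairs of libraries were identical. The labels pair the muscles of an animal. Deviations from group means had a median r of 0.174 over the 12 pairs of an animal (8 of 12 over 0.1) and of -0.00964 between animals, and animal was fitted as a block as an alternative. Other alternatives were values as deposited, a pseudocount of 0.1 (1 for ratios), no filter, a mean of at least 10, time-matched controls (also, chosen after seeing the data, without the contralateral muscle named below), the most abundant transcript, an intensity trend, a threshold of 0.01, and leaving out each trained muscle or the contralateral muscle with an unusual mitochondrial share (30 days, replicate 1: 43.7% against 27.8% to 34.6%).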

Additional observations from a re-analysis of the deposited data

Results flagged for a closer look

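The level in trained muscle differed between 2 and 30 days of training for 3 genes in a direct test of the trained groups (limma, 3 muscles each). The difference itself does not use the control muscles, but its SE and p rest on the spread over all 24 muscles in the fit. Pvalb was lower at 30 days by a log2 difference of -2.18, Casq2 was lower by -1.19, and Pln was higher by 0.55. Every 30-day Pvalb value (124 to 379) lay below every 2-day value (977 to 1471), every 30-day Casq2 value (12.6 to 18.4) lay below every 2-day value (26.7 to 49.4), and every 30-day Pln value (1.70 to 2.75) lay above every 2-day value (1.01 to 1.27). With the contralateral muscle of each rat as a block, which compares the differences from control, 0 of the 8 genes passed the threshold. Without the block, Pvalb passed with any 1 trained muscle left out. Casq2 did not pass without replicate 2 or 3 of 2 days or replicate 3 of 30 days. Pln did not pass without replicate 2 or 3 of 2 days or replicate 1 or 2 of 30 days. On the values as deposited Pln did not pass, while Casq1, Casq2 and Pvalb were lower, where 29.2% of all genes passed.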

How the results depend on the processing

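The calls for Casq2 at 2 and 10 days, for Casq1 at 20 days and for Pvalb at 10, 20 and 30 days kept their direction and their side of the threshold under the 14 or 15 alternatives run for each. At 2 days the number of the 8 genes called was 6, and it was 3 on the values as deposited, 3 with the replicate block, 3 with time-matched controls, 2 at an adjusted p of 0.01, and 1 to 6 with a trained muscle of 2 days left out (1 without replicate 2 and 2 without replicate 3), while it was 7 without replicate 3 of 10 days. The share of all genes called at 2 days fell as well, from 28.9% to 25.4% as deposited, 21.6% with the block and 19.6% with time-matched controls. Without replicate 2 of 2 days it was 13.4%, and without replicate 3 it was 19.4%. Time-matched controls without contralateral replicate 1 of 30 days, chosen after seeing the data, gave 2 of the 8 genes at 2 days and 1 in place of 2 at 30 days, where Casq1 was lost. At 10 days the number of the 8 genes called was 3, and 1 in the gene-level table, which lacks Casq2 and Sln. Between trained groups the total was 3, and it was 0 with the replicate block and 1 to 5 with a trained muscle left out (1 without replicate 2 or 3 of 2 days, 5 without replicate 3 of 10 days, when Casq2 and Sln passed between 20 and 10 days). The block for animal changed no call of a member other than those given beside the results. Of the other calcium genes 19 passed at 2 days and 12 with time-matched controls, beside 28.9% and 19.6% of all genes. The cause of these differences was not tested.

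The Casq1 to Casq2 ratio with a trained muscle left out gave -1.96 to -1.37 at 2 days, -2.18 to -1.48 at 10 days and -0.97 to -0.61 at 30 days. The adjusted p was 0.0586 to 0.0879 by exact permutation tests of 12 against 2 muscles, which have fewer permutations than 12 against 3. At 20 days the ratio difference ranged from -0.93 to -0.39, and it passed (adjusted p = 0.044) without replicate 2, and at -0.65 with a pseudocount of 1. The ratio of AABR07005775.1 to Atp2a2 ranged from -0.15 to 0.21 at 10 days and from -0.41 to 0.015 at 30 days, reversing without replicate 3 and without replicate 2.

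Directions reversed otherwise for values that had not passed the test. At 10 days Cacna1s was 0.021 on the values as deposited and 0.017 with the block or time-matched controls, and Ryr1 was 0.10 as deposited, 0.0038 with the block or time-matched controls, 0.054 in the gene-level table and -0.092 to 0.037 with a trained muscle left out. At 20 days Atp2a2 was 0.024 in the gene-level table, 0.014 without contralateral replicate 1 of 30 days, and -0.17 to 0.092 with a trained muscle left out. Sln at 20 days was 0.14 with a pseudocount of 0.1 and -0.28 to 0.24 by leave-one-out, and Pln 0.022 with the block or time-matched controls and -0.16 to 0.0079. Casq2 at 20 days was -0.00056 as deposited, -0.0024 with a pseudocount of 0.1, -0.10 with the block or time-matched controls, and -0.15 to 0.30 by leave-one-out, and at 30 days -0.11 as deposited and -0.027 to 0.23.

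Each trained group held 3 muscles, the tables hold no counts from which counting precision could be computed, and Sln and Pln rest on at most 49 counting steps in a muscle. The values as deposited shifted the median of all genes at 30 days from -0.01 to -0.18, and Cacna1s then passed (-0.49).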
